A study of Drosophila melanogaster with 3 samples.

Results

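The genes described are the nuclear genes of oxidative phosphorylation in Drosophila melanogaster, taken as the protein-coding genes of the Ensembl release 115 annotation whose symbol begins with ND-, UQCR-, COX or ATPsyn, or is SdhA, SdhB, SdhC or SdhD. The rule found 84 genes among 13968 protein-coding genes. By symbol, 40 belong to complex I (ND-), 4 to complex II (Sdh), 9 to complex III (UQCR-), 16 to complex IV (COX) and 15 to complex V (ATPsyn). Of the 84, 17 are duplicates named for another of these genes with a final L, such as ND-51L1, a copy of ND-51.

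Complexes I to IV of the inner mitochondrial membrane pass electrons from NADH and succinate to oxygen and pump protons out of the matrix, except complex II, which pumps none. Complex V, the ATP synthase, lets the protons back in and makes ATP. Most subunits are encoded in the nucleus by genes scattered over the chromosomes, and in Drosophila many of them have an extra copy that is used mainly in the testis.

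The data were chromatin immunoprecipitation followed by sequencing (ChIP-seq) from whole animals, males and females pooled, at the white prepupa stage, when the larva has just formed its puparium. All 3 samples were biological replicates of 1 group. They came from a transgenic line that stably expresses CG8632, annotated as ZnT49B, with GFP fused to its C-terminus, and an antibody against GFP was used. The ZnT family consists of membrane transporters of zinc. The promoter that drives the fusion is not given in the sources used here, and control samples were not analysed here, so whether recovery at a gene depended on the fusion protein was not tested.

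Each replicate had a relaxed list of 30000, 29322 and 30000 calls for replicates 1, 2 and 3, which by design also holds background. The study's own peak set, from an irreproducible discovery rate (IDR) analysis of the pooled replicates, held 6469 peaks and is called the IDR set. Every call carries the authors' signal value, in units that the sources used here do not define, and its rank is its place in its own list by signal, with 1 the strongest. Scaling between libraries is unknown, so an SD over replicates may include differences in scale. A call was counted at a gene's start when no more than 500 bp separated its summit from the start of an annotated transcript of that gene. In the replicate lists, the strongest 6469 calls, as many as the IDR set holds, are called the top calls. Read depth is unknown, so no read-based error could be given for a signal. Shares of genes carry Wilson 95% intervals, which cover counting error only.

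Few oxidative phosphorylation genes had a peak at a start. The IDR set had a peak at a start of 9 of the 84 genes, a share of 10.7% (5.74 to 19.1%), against 17.0% of all protein-coding genes (16.4 to 17.6%). The 9 genes were ND-ASHI, ND-42, ND-MWFE, ND-51, ND-24 and ND-SGDH of complex I, SdhD of complex II, COX7AL2 of complex IV and ATPsynE of complex V. No gene of complex III had such a peak. The interval of the 84 genes includes the share of all protein-coding genes, and no test was run between them.

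The replicate lists gave the same picture. Top calls lay at a start of 9 of the 84 genes in replicate 1, 13 in replicate 2 and 7 in replicate 3, a mean of 11.5% ± 3.64 (SD, n = 3). Among all protein-coding genes the shares were 17.3% in replicate 1, 17.3% in replicate 2 and 18.3% in replicate 3, a mean of 17.6% ± 0.585 (SD, n = 3). The oxidative phosphorylation genes were below all protein-coding genes in each replicate, and replicate 2 came closest. Top calls of all 3 replicates lay at a start of 3 of the 84 genes (3.57%, 1.22 to 9.98%), against 12.6% of all protein-coding genes (12.1 to 13.2%). Here the interval of the 84 genes lies below the share of all protein-coding genes, and no test was run between them.

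These 3 genes were ND-ASHI, ND-42 and ND-MWFE, all of complex I. A further 14 genes had a top call in 1 or 2 replicates, among them ND-23, ND-30, ND-49, ND-MNLL and ATPsynbeta in replicate 2 alone. The replicate 2 calls at ND-23, ND-30 and ATPsynbeta lay nearer to another gene's start. These 14 were 16.7% of the 84 genes, against 10.7% of all protein-coding genes, and the share with no top call in any replicate was 79.8%, against 76.7%. With calls of any rank, 16 of the 84 genes (19.0%) had a call at a start in all 3 replicates, against 24.7% of all protein-coding genes. A further 17 had one in 2 replicates and 7 in 1 replicate. The remaining 44 genes had no call of any rank in any replicate, a share of 52.4% (41.8 to 62.7%), against 44.7% of all protein-coding genes. At this weaker level the mean share with a call was 35.3% ± 1.82 (SD, n = 3) for the oxidative phosphorylation genes and 39.6% ± 3.35 (SD, n = 3) for all protein-coding genes. By replicate the shares were 36.9% against 42.2% in replicate 1, 35.7% against 35.8% in replicate 2 and 33.3% against 40.7% in replicate 3.

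**Figure D1:**
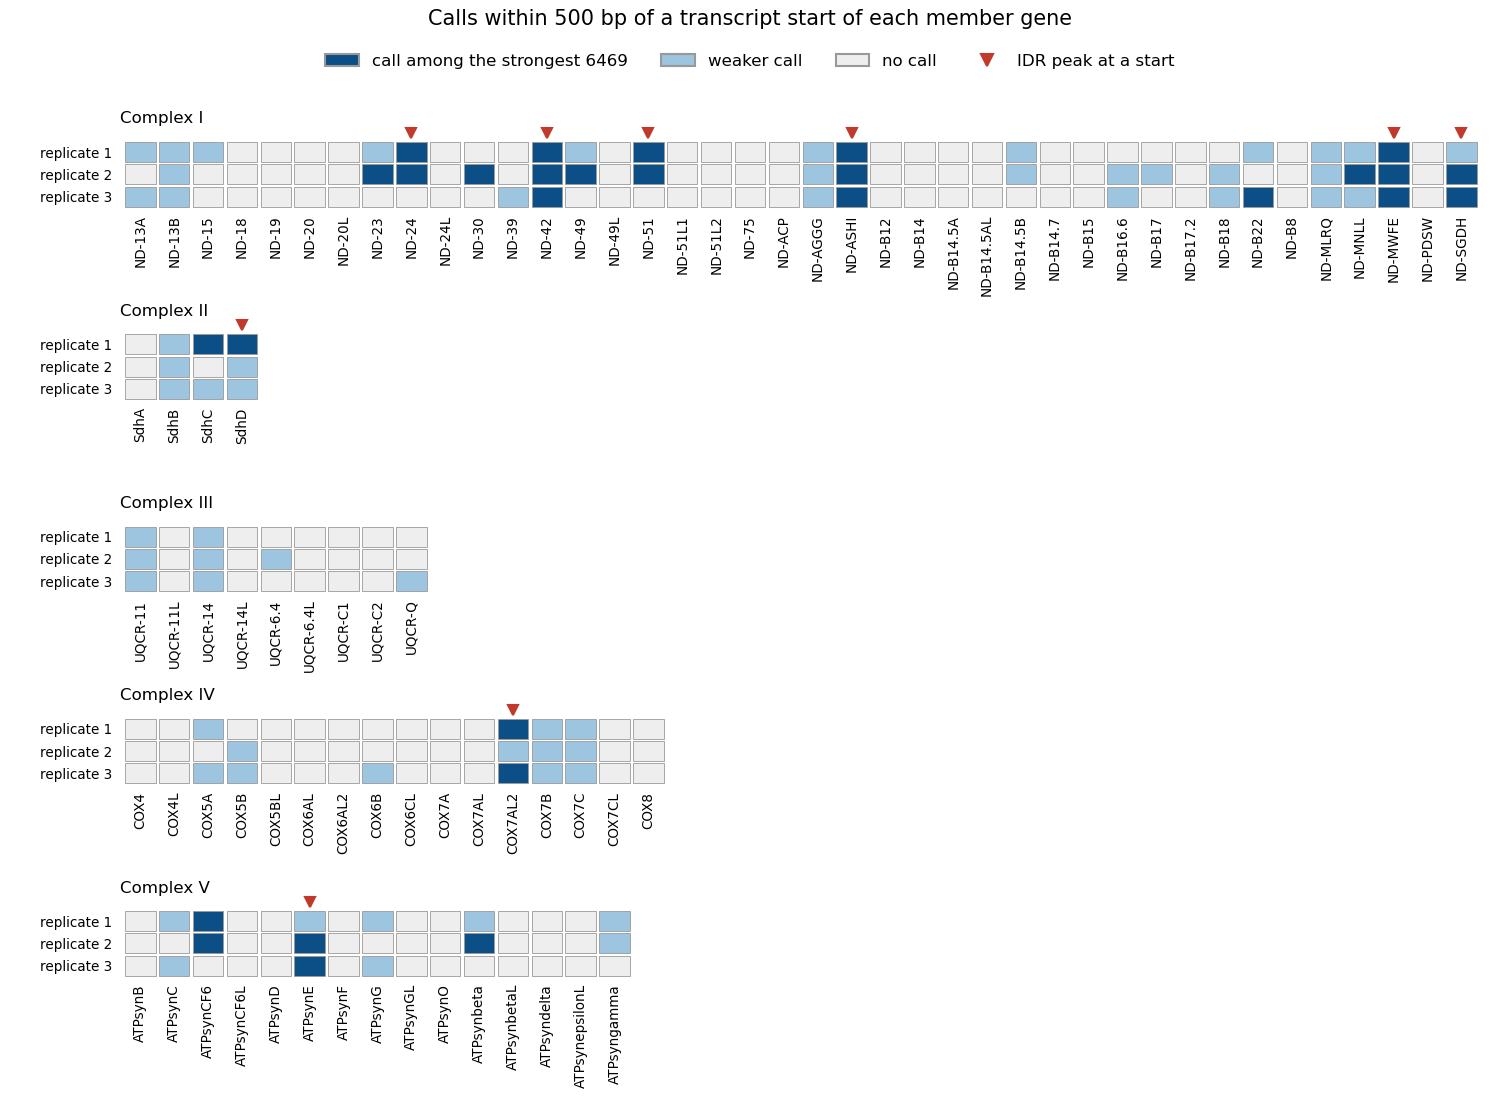
Calls within 500 bp of a start of each of the 84 oxidative phosphorylation genes, with genes along the horizontal axis by complex and replicates 1 to 3 as rows. Dark blue marks a call among the strongest 6469 of that replicate, light blue a weaker call, grey no call, and a red triangle an IDR peak at a start. Dark columns over all 3 rows occur for ND-42, ND-ASHI and ND-MWFE alone, and 44 genes are grey throughout.

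DNA around 4 of the summits is printed to show where they lie, each on the strand of the oxidative phosphorylation gene so that the sequence runs towards its start. ND-51 and CG13994, ATPsynE and Afti, and ND-SGDH and RhoGAP68F are divergent pairs, transcribed away from each other, and the whole stretch between their starts is given, with the summit at base 121 of 231 for ND-51, base 228 of 257 for ATPsynE and base 242 of 283 for ND-SGDH. For ND-ASHI, 201 bp centred on the summit are given, since it carries the strongest peak. Positions are on Release 6 (dm6), with the sequence from RefSeq: chr2L:6062758-6062988, minus strand, for ND-51; chr3R:14326690-14326946, plus strand, for ATPsynE; chr3L:12138585-12138867, minus strand, for ND-SGDH; and chrX:6679241-6679441, minus strand, for ND-ASHI. Capitals mark TATAAA on either strand, which the stretches of ND-51 and ATPsynE lack.
ND-51: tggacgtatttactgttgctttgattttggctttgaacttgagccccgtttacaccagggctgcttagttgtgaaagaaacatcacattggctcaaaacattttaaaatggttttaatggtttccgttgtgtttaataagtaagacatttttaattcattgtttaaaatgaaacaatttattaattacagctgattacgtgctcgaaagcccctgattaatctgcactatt
ATPsynE: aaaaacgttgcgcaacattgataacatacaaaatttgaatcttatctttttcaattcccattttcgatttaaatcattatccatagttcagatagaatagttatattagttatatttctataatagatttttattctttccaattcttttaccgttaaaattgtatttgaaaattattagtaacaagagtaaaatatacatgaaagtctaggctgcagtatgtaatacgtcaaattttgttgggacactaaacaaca
ND-SGDH: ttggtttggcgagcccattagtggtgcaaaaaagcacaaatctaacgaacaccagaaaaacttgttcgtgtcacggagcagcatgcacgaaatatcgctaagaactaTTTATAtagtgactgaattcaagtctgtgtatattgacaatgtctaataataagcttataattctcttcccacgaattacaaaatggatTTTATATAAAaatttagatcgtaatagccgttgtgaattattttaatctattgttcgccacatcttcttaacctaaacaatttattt
ND-ASHI: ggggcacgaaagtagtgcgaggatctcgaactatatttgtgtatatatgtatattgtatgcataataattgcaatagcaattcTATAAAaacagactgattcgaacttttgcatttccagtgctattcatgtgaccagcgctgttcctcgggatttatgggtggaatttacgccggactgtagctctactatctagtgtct
All 4 stretches are rich in A and T, with a GC content of 33.8% for ND-51, 25.3% for ATPsynE, 32.9% for ND-SGDH and 39.8% for ND-ASHI.

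Complex I, the NADH dehydrogenase, is the largest group, with 40 of the 84 genes. A peak was found at 6 of the 40 (15%, 7.06 to 29.1%), against 17.0% of all protein-coding genes. Top calls lay at a start of 5, 10 and 5 of its genes in replicates 1, 2 and 3 (12.5%, 25% and 12.5%). The shares of all protein-coding genes were 17.3%, 17.3% and 18.3%. ND-ASHI encodes an accessory subunit of the membrane arm and had by far the highest signal of the 84 genes. Its call had a signal of 311.9 in replicate 1, 189.1 in replicate 2 and 245.5 in replicate 3, a mean of 249 ± 61.5 (SD, n = 3), with ranks 243, 326 and 357. In the IDR set its peak ranked 283, with a pooled signal of 761. The gene lies on chromosome X at 6677262 to 6679118 on the minus strand, and the summit at 6679341 is 223 bp upstream of its start. Fum1, the fumarase of the citrate cycle, is transcribed the other way from a start 299 bp from the same summit, and the summit also lies in an intron of a longer Fum1 transcript.

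ND-42 and ND-MWFE encode accessory subunits of complex I. The call at ND-42 had a signal of 114.9, 77.8 and 121.2 in replicates 1, 2 and 3 (104.6 ± 23.4, SD, n = 3), and the IDR peak ranked 1584. The call at ND-MWFE had a signal of 78.1, 99.3 and 107.7 in replicates 1, 2 and 3 (95.03 ± 15.3, SD, n = 3), and the IDR peak ranked 1813. The ranges of these genes overlap each other, and both lie below that of ND-ASHI in every replicate.

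The other 3 genes of complex I had weaker peaks. ND-51 encodes the core subunit that binds NADH and flavin. Its call had a signal of 70.1 in replicate 1 and 34.5 in replicate 2, and replicate 3 had no call of any rank there. The IDR peak, from the pooled reads, ranked 3571. ND-24 encodes a core iron-sulphur subunit that sits next to ND-51 in the complex. Its call had a signal of 78.3 in replicate 1 and 41.3 in replicate 2, and replicate 3 again had no call, while the IDR peak ranked 3634. ND-SGDH encodes an accessory subunit of the membrane arm, and its call had a signal of 34.6, 43.8 and 55.1 in replicates 1, 2 and 3 (44.5 ± 10.2, SD, n = 3) with an IDR rank of 5121. The call at ND-SGDH was below the top calls in replicate 1, where it ranked 8245.

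Complex II, the succinate dehydrogenase, had a peak at 1 of 4 genes (25%, 4.56 to 69.9%), against 17.0% of all protein-coding genes. That gene was SdhD, a membrane anchor subunit. The call at SdhD had a signal of 46.1, 26.6 and 33.3 in replicates 1, 2 and 3 (35.3 ± 9.92, SD, n = 3). It ranked 5956, 6516 and 8357, so only replicate 1 had it among the top calls. In the IDR set it ranked 6361 of 6469 and was the weakest of the 9. SdhC, the other membrane anchor, had a top call in replicate 1 alone, at rank 5863, with its summit nearer to another gene's start. SdhB, the iron-sulphur subunit, had calls in all 3 replicates at ranks 19408, 11391 and 18114, far down the lists. SdhA, the flavin-binding subunit, had no call at its start in any replicate.

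Complex III, the cytochrome bc1 complex, had no IDR peak and no top call in any replicate at a start of its 9 genes (0%, 0 to 29.9%). The gene with the lowest mean rank was UQCR-14, an accessory subunit, with ranks of 14170, 7564 and 10029 in replicates 1, 2 and 3. The signal of these calls was 21.1, 23.5 and 28.8, against 42.7, 26.7 and 41.0 for the weakest top call of replicates 1, 2 and 3. UQCR-C1 and UQCR-C2, the large core subunits on the matrix side, had no call of any rank.

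Complex IV, the cytochrome c oxidase, had a peak at 1 of 16 genes (6.25%, 1.11 to 28.3%), and that gene was COX7AL2, a duplicate of the small subunit gene COX7A. Its call had a signal of 58.7, 23.4 and 54.7 in replicates 1, 2 and 3 (45.6 ± 19.3, SD, n = 3), and the IDR peak ranked 4322. Replicate 2 stood lower than the others, with the call at rank 7636 outside its top calls. Of the 9 summits it lay farthest from a start, 410 bp downstream, in a UTR exon of the longest transcript. COX7A itself, COX4 and COX8 had no call of any rank.

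Complex V had a peak at 1 of 15 genes (6.67%, 1.19 to 29.8%). ATPsynE encodes a small subunit of the membrane part of the ATP synthase. Its call had a signal of 41.1, 68.4 and 76.4 in replicates 1, 2 and 3 (62.0 ± 18.5, SD, n = 3). Its ranks were 6776, 2004 and 2878, so the call fell just outside the top calls of replicate 1, while the IDR peak ranked 2984. ATPsynCF6, coupling factor 6 of the stalk, had top calls in replicates 1 and 2 at ranks 6374 and 5287, no call in replicate 3 and no IDR peak at a start. Both calls lay nearer to the start of Sec13, a coat protein of secretory vesicles. ATPsynbeta, the catalytic subunit, had a call at rank 8902 in replicate 1 and 4820 in replicate 2, and no call in replicate 3. The call in replicate 2, its only top call, lay nearer to another gene's start.

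**Figure D2:**
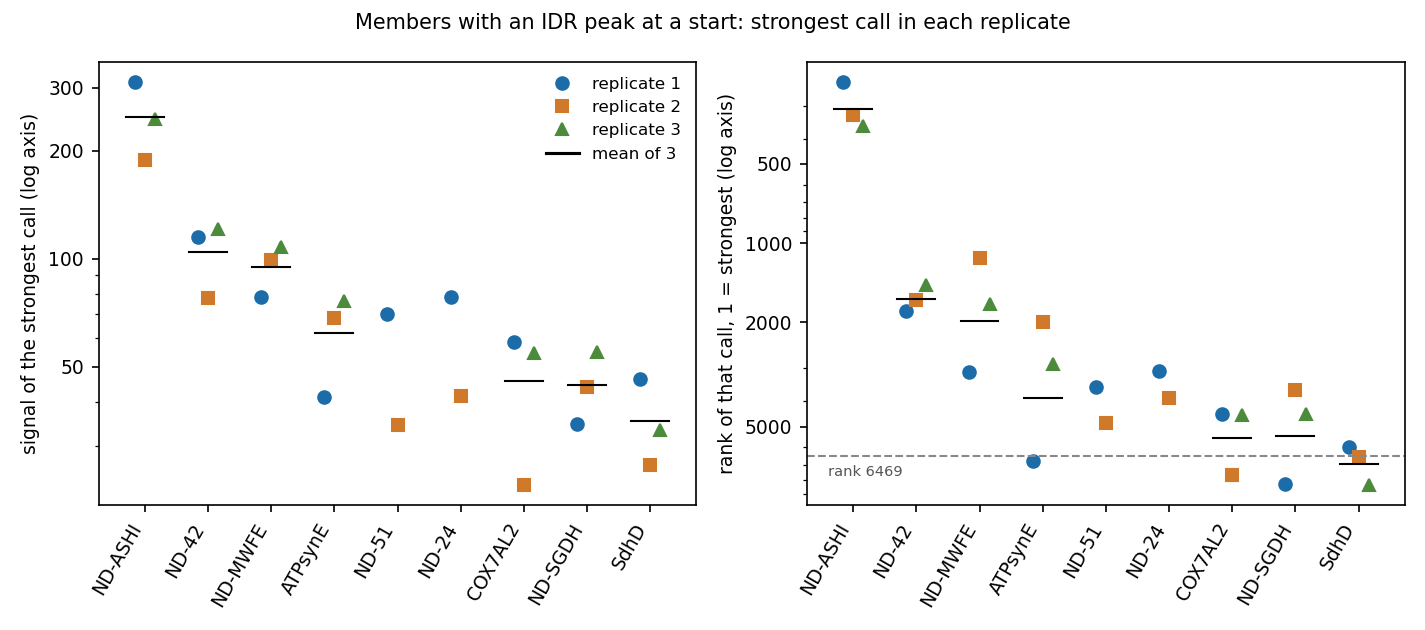
Strongest call at a start in each replicate for the 9 oxidative phosphorylation genes with an IDR peak, in order of IDR rank. The left panel shows signal as deposited and the right panel its rank (both log axes, ranks inverted so that stronger calls are higher), points are replicates, bars are means where all 3 replicates had a call, and the dashed line is rank 6469. ND-ASHI stands above the other 8 in every replicate, ND-51 and ND-24 have no point for replicate 3, and ATPsynE, COX7AL2, ND-SGDH and SdhD cross the dashed line.

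Weak calls in all 3 replicates, with no IDR peak at a start, were found at 9 further genes. They were ND-13B, ND-AGGG, ND-MLRQ and ND-MNLL of complex I, SdhB, UQCR-11, UQCR-14, COX7B and COX7C. With or without an IDR peak, calls in all 3 replicates were found at 19.0% of the 84 genes, against 24.7% of all protein-coding genes. Each replicate's strongest call was taken separately, so the calls of a gene need not share a site. For ND-AGGG, ND-MLRQ, COX7B and COX7C the nearest start was the gene's own in some replicates and another gene's in others. ND-MNLL, a small accessory subunit, had ranks of 6734, 5044 and 11321 in replicates 1, 2 and 3, with a mean signal of 33.6 ± 7.65 (SD, n = 3). That mean is close to the 35.3 of SdhD, the weakest of the 9 genes with an IDR peak. COX7C, a small subunit of cytochrome c oxidase, had ranks of 7952, 13408 and 6781 and a mean signal of 30.3 ± 12.8 (SD, n = 3). COX7B, another small subunit, had the most even ranks of these, 9156, 10074 and 10223, with a mean signal of 26.3 ± 6.66 (SD, n = 3). ND-MLRQ, placed in complex I by its symbol, was the weakest, with ranks of 22300, 23896 and 19373. Ranks like those of ND-MLRQ are far down the relaxed lists, where calls cannot be told apart from background.

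The intervals of the 5 complexes overlap, and with 4 to 40 genes each the shares do not separate them. Within the 9 peaks the signal of the strongest was 7.16 times that of the weakest. Their median pooled signal was 175.1, with a median rank of 3571, against a median signal of 232.9 over the 2373 protein-coding genes with an IDR peak at a start. ND-ASHI, ND-42 and ND-MWFE were the 3 genes above that median. The IDR set ends by signal: SdhD at rank 6361 was just inside it, and ND-23, a core iron-sulphur subunit of complex I whose call ranked 7140 in the pooled list, was the nearest outside.

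Most of these peaks were close to the start of another gene as well. For 7 of the 9 peaks, such a start was within 500 bp of the summit. This count was not made over all IDR peaks. Measured from the gene's own starts instead, another gene's start lay within 500 bp at 7 of the 9 genes. The same held for 1322 of the 2373 protein-coding genes with an IDR peak at a start, and the difference was not tested. A summit was called a gene's own when no start of any other annotated gene was nearer. By that rule 7 of the 84 genes had a peak of their own (8.33%, 4.10 to 16.2%), against 12.8% of all protein-coding genes. The exceptions were ND-42, whose summit was 44 bp from the start of Cchl, a cytochrome c heme lyase, and 273 bp from its own, and ND-MWFE, whose summit was 80 bp from the start of TppII, a tripeptidyl peptidase, and 141 bp from its own. Thus, of the 3 genes with a top call in every replicate, ND-ASHI had a summit nearest to its own start and the other two did not. The same held in every replicate for ND-42 and ND-MWFE, while the remaining 7 genes were nearest in each replicate that had a call.

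The gap was small at ND-51, with its start 111 bp and that of CG13994 121 bp from the summit. It was wider at ND-24, with its nearest start 101 bp and that of corolla, a synaptonemal complex protein, 173 bp away. ATPsynE and ND-SGDH had summits 30 bp and 42 bp from their own starts, against 228 bp to the start of Afti, a clathrin-associated protein, and 242 bp to that of RhoGAP68F. COX7AL2 and SdhD had no other start within 500 bp, and the summit of SdhD was 22 bp from its start. Of the 9 summits, 8 lay upstream of the nearest start of the gene, a count that was not made over all IDR peaks at a start. The summit of ND-24, at 17632220, lay between the 2 starts of that gene, at 17632089 and 17632321. Most peaks had the list's fixed width of 436 bp, so the position of a summit is more informative than the extent of its peak. Sonication gave labelled fragment sizes of 200 to 800 bp, and starts this close cannot be told apart with confidence by a summit alone.

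Own starts were also nearest for 5 of the 9 genes with top calls in replicate 1, 7 of 13 in replicate 2 and 5 of 7 in replicate 3. Over calls of any rank the counts were 22 of 31, 18 of 30 and 18 of 28 genes. As shares of the genes with a top call these were 55.6%, 53.8% and 71.4%, against 73.9%, 73.2% and 76.5% over all protein-coding genes. For calls of any rank they were 71.0%, 60% and 64.3%, against 79.3%, 80.0% and 80.9%. Among genes with another gene's start within 500 bp of one of their own, the top-call shares were 42.9%, 53.8% and 60%. All protein-coding genes of that kind had 58.5%, 58.1% and 60%. With calls of any rank the shares in this class were 61.9%, 47.6% and 47.4%, against 60%, 60.7% and 60.6%. The part of neighbours in these shares was not tested.

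**Figure D3:**
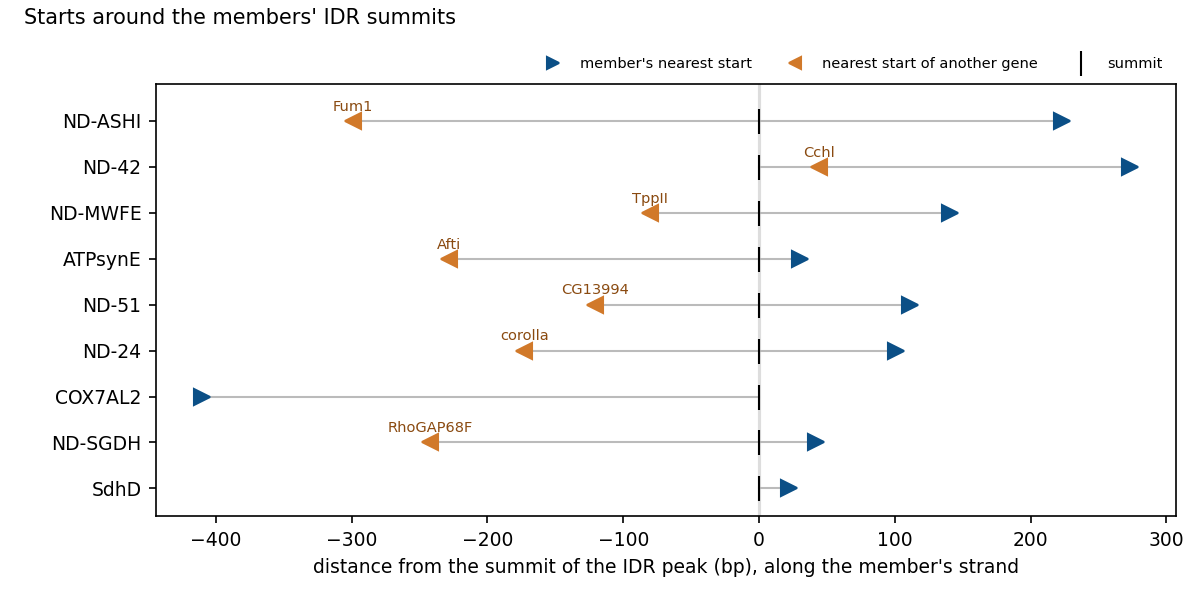
Distance in bp from the summit of each of the 9 IDR peaks (vertical ticks at 0) to the gene's own nearest start (blue) and to the nearest start of another gene within 500 bp of the summit (orange), along the gene's strand, with arrows for the direction of transcription. The neighbour is nearer for ND-42 and ND-MWFE, and COX7AL2 is the only gene whose nearest start lies upstream of the summit.

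Close neighbours are frequent in this gene group. Another gene's start lay within 500 bp of a start of 43 of the 84 genes (51.2%), against 34.4% of all protein-coding genes. For 38 of the 43 the closest such gene was on the opposite strand. Strands were not counted over all protein-coding genes, so the 38 cannot be read as particular to this group. An IDR peak was found at 7 of the 43 genes with a close neighbour (16.3%, 8.12 to 30%), against 27.5% of all protein-coding genes with one. It was found at 2 of the 41 genes without a close neighbour (4.88%, 1.35 to 16.1%), against 11.5% of all protein-coding genes without one. The oxidative phosphorylation genes were below the background in both classes, but each interval includes the background share and no test was run. Genes with a close neighbour were 7 of the 9 oxidative phosphorylation genes with a top call in replicate 1, 13 of 13 in replicate 2 and 5 of 7 in replicate 3. Over all protein-coding genes they were 1377 of 2418, 1389 of 2415 and 1374 of 2558.

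The number of annotated starts gives each gene more or fewer chances to be counted, and this division was chosen after the values were seen. Of the 50 oxidative phosphorylation genes with 1 start, 3 had an IDR peak (6%), against 11.7% of all such protein-coding genes. Of the 29 with 2 starts, 4 had one (13.8%), against 25.8%. Of the 5 with 3 or more starts, 2 had one (40%), against 44.8%. In each class the Wilson interval of the oxidative phosphorylation genes includes the share of all protein-coding genes. The genes are also shorter, with a median length of 1097 bp against 2164.5 bp for all protein-coding genes, and the part of length in the counts was not tested.

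**Figure D4:**
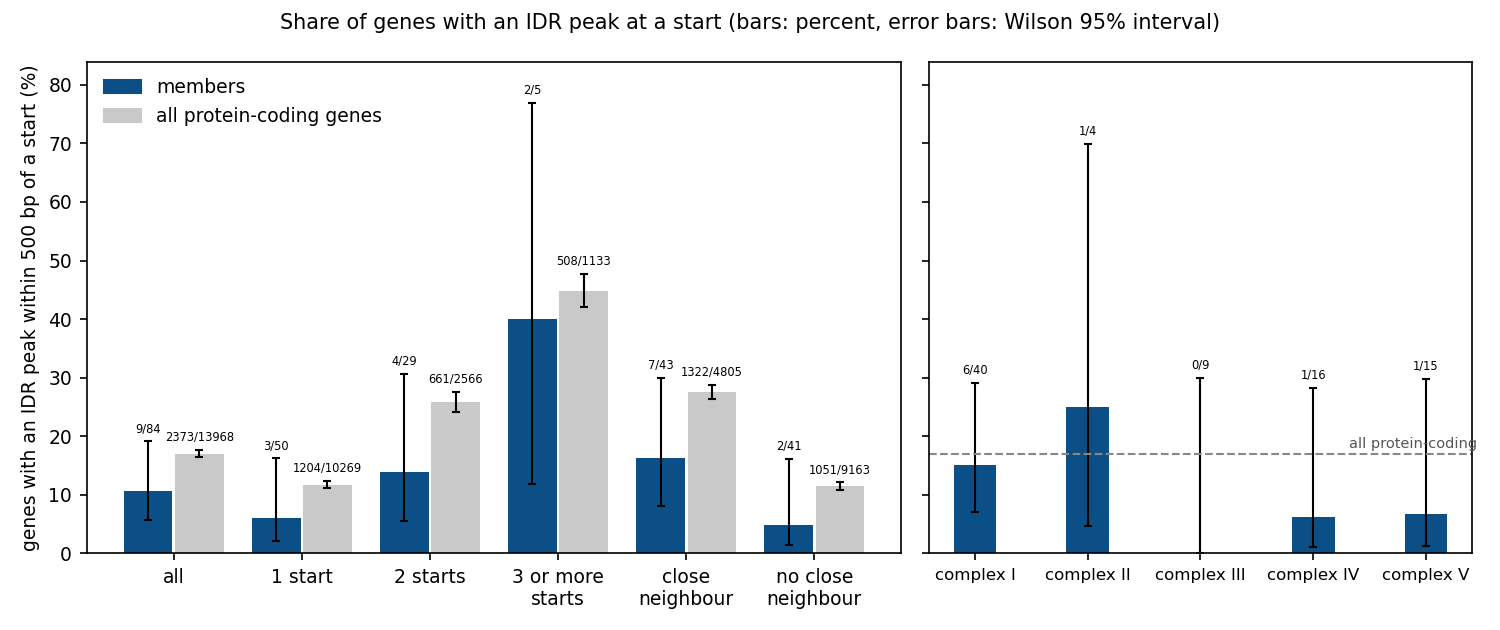
Percent of genes with an IDR peak within 500 bp of a start, as bars with Wilson 95% intervals and the counts above them. In the left panel, oxidative phosphorylation genes (blue) stand beside all protein-coding genes (grey) for all genes, by number of starts and by presence of a close neighbour, and the blue bar is the lower in every pair. In the right panel the genes are divided by complex, with a dashed line at 17.0% for all protein-coding genes and intervals that all include it.

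The duplicates rarely had even a weak call. Of the 17, COX7AL2 had an IDR peak, and the other 16 had no call of any rank at a start in any replicate. Among the other 67 genes, 8 had an IDR peak (11.9%, 6.18 to 21.8%) and 28 had no call of any rank in any replicate. Those 28 include COX6AL, COX6AL2, COX6CL and ATPsynepsilonL, whose symbols also carry the L but are named for none of the genes described. The split therefore follows the naming rule and need not separate every duplicate from the rest. The share without any call was 94.1% (73 to 99%) for the duplicates and 41.8% (30.7 to 53.7%) for the rest. It was 44.7% over all protein-coding genes and 53.1% over those with 1 start. No test was run between these shares. A close neighbour was present at 2 of the 17 duplicates (11.8%) and at 41 of the other 67 genes (61.2%), and the mean number of starts was 1.18 for duplicates and 1.54 for the rest. The part of these differences in the result was not tested. Of the 28 other genes without a call, several encode subunits at the core of their complexes, such as ND-75 of complex I and the already named UQCR-C1 and UQCR-C2.

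Peaks farther from a start were counted next. Of the 75 genes with no IDR peak at a start, 15 (20%) had one in the gene or within 2 kb of it, and 60 had none. Over all protein-coding genes with no IDR peak at a start the share was 21.1%. For each of the 15, only the strongest such peak was examined. Its summit was nearest to a start of the oxidative phosphorylation gene itself in 2 cases, COX7C at 1974 bp and ND-MNLL at 863 bp. ND-MNLL shares its start with CG45089. The nearest cases beyond the 500 bp limit were ND-75 at 739 bp, ND-MNLL at 863 bp and SdhA at 877 bp, against 410 bp for COX7AL2 just inside it. The summit near ND-75 lay 244 bp from the start of CG1632, and that near SdhA 76 bp from the start of cer. Among these strongest peaks, only that of ND-39, an accessory subunit of complex I, had its summit inside the gene. That summit lay 136 bp from the start of ZnT77C, a gene of the same transporter family as the tagged protein. That peak ranked 492 in the IDR set and was 1544 bp from the nearest start of ND-39.

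The 84 genes are spread over the genome, and those with a peak were counted by chromosome. Chromosome 2L held 16 of the genes and 2 of the 9 with a peak, 2R 17 and 1, 3L 19 and 1, 3R 18 and 3, X 12 and 2, and chromosome 4 held 2 and none. No arm held more than 3 of the peaks. The share of all protein-coding genes with a peak was not counted by chromosome, so no difference between chromosomes can be read from these counts.

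Short sequence words were searched on both strands in 201 bp around each summit, and in promoters as the 200 bp before the outermost start of each gene plus the start. The words were the DNA replication-related element (DRE) TATCGATA, the E-box CACGTG, the repeat GAGAGA, the TATA box TATAAA, GGTCACAC, the core of a core-promoter motif known as Ohler motif 1, TTACATAA, TTACGTAA, and a run of 8 A. TATAAA was in 4 of the 9 summit windows of the oxidative phosphorylation genes (44.4%), against 39% of the 2278 IDR summits at a start. A run of 8 A was in 3 of 9 (33.3%), against 17.3%. The other 6 words were in none of the 9 windows. DRE was in 3.12% and the Ohler core in 1.71% of all IDR summits at a start. With 9 windows no difference in these shares can be seen.

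In the promoters, DRE was found in 5 of the 84 genes (5.95%) and the Ohler core in 9 (10.7%), against 7.37% and 3.74% of all protein-coding promoters. None of the 13 oxidative phosphorylation genes with either word had an IDR peak at a start, against 19.9% of the 1497 protein-coding genes with either word. The group is small, and 9 of the 84 genes had a peak in all. COX4, a nuclear subunit of cytochrome c oxidase, holds both words and had no call of any rank in any replicate, and its promoter is printed to show where the words lie. It covers chr2L:19958513-19958712, plus strand, from RefSeq on Release 6, with the words in capitals, first DRE and then the Ohler core.
COX4: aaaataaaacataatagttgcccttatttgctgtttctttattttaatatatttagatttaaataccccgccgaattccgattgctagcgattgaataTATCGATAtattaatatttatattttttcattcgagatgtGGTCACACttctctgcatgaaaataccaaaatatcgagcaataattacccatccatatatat
Base composition differed little between genes with and without a peak. The median GC content was 31.8% in the 9 summit windows (26.9 to 39.8%) and 33.3% over all IDR summits at a start. The promoters of the 9 genes with a peak had a median of 32.8% and those of the 75 without 32.3%, against 37.3% for all protein-coding promoters.

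Other genes of mitochondrial energy metabolism were counted from a list of 56 symbols, of which 55 matched a gene. Of these, 12 had an IDR peak at a start (21.8%, 12.9 to 34.4%), against 17.0% of all protein-coding genes. Subunits with names outside the rule and cytochrome c had 4 of 11: Cyt-c-d, a form of cytochrome c, at IDR rank 320, blw, the alpha subunit of the ATP synthase, at 1983, and the complex IV subunits cype at 2968 and levy at 5441. Assembly factors had 2 of 9, CIA30, an assembly factor of complex I, at rank 177, and Cox17, a copper chaperone of complex IV, at 1577. The citrate cycle and pyruvate dehydrogenase had 4 of 14, namely Idh3g at 258, Fum1 at 283, whose peak is the one counted above for ND-ASHI, the aconitase gene mAcon1 at 2233 and the pyruvate dehydrogenase gene Pdhb at 4469. Mitochondrial DNA maintenance and expression had 1 of 11, mTerf5, of the mitochondrial transcription termination factor family, at 2317. Nuclear regulators had 1 of 5, ERR, a nuclear receptor, at 1944. The 5 carriers of adenine nucleotides, phosphate and metabolites had none.

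CIA30 had the strongest of these peaks, with signals of 360.3, 289.0 and 265.0 in replicates 1, 2 and 3 (304.8 ± 49.5, SD, n = 3), above ND-ASHI in each replicate. Its summit was 71 bp from the start of CG7601 and 149 bp from its own. Idh3g, a subunit of isocitrate dehydrogenase, followed with 257.0, 204.6 and 331.7 (264 ± 63.9, SD, n = 3), and there the summit was nearest to its own start at 90 bp. The summits of CIA30, Cyt-c-d, levy, Fum1, Pdhb and ERR in the IDR set were nearer to another gene's start, and that of ERR was 2 bp from the start of Atg18a. In single replicates the call at Pdhb was nearest to its own start in replicates 1 and 2, and that at CIA30 in replicate 2. The gene blw, whose product forms the catalytic head with ATPsynbeta, had signals of 115.8, 60.2 and 87.9 (88.0 ± 27.8, SD, n = 3) with its own start nearest at 167 bp. ATPsynbeta, whose call ranked 12035 in the pooled list, had no IDR peak at a start.

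**Figure D5:**
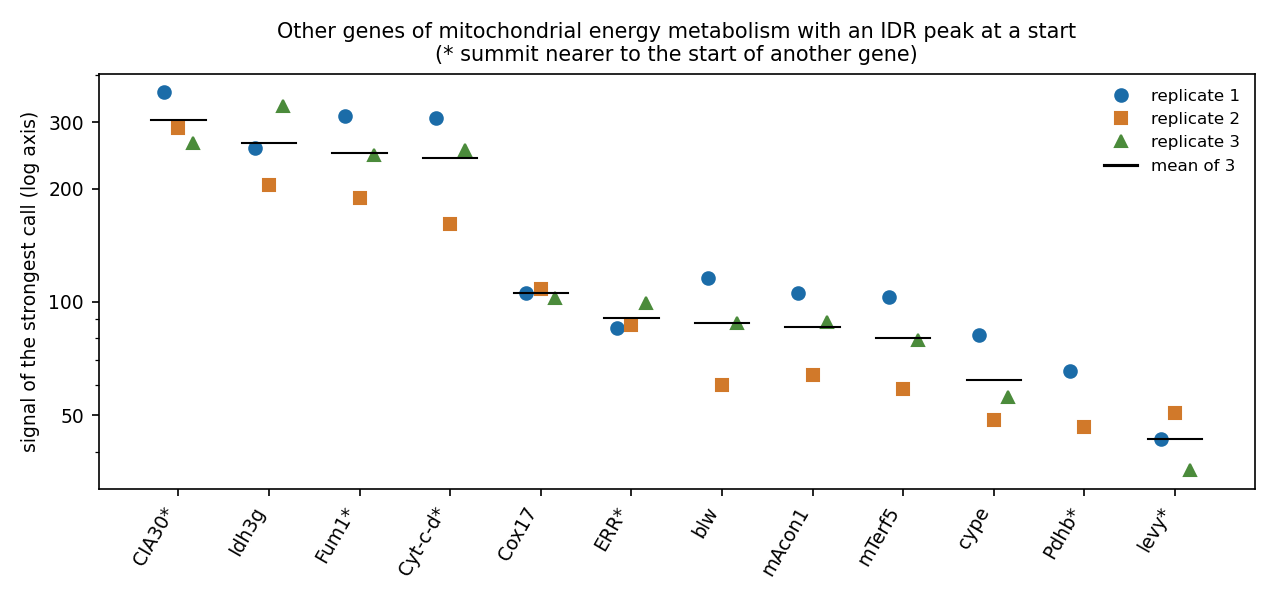
Signal of the strongest call at a start in each replicate (log axis) for the 12 other genes of mitochondrial energy metabolism with an IDR peak, in order of IDR rank. Points are replicates, bars are means where all 3 had a call, and an asterisk marks a summit nearer to another gene's start. CIA30, Idh3g, Fum1 and Cyt-c-d lie at or above 161.1 in every replicate, and Pdhb has no point for replicate 3.

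Genes of mitochondrial ribosomal proteins, another large nuclear group of mitochondrial function, had an IDR peak at a start of 18 of 73 (24.7%, 16.2 to 35.6%), but a peak of their own at 5 (6.85%, 2.96 to 15.1%). The shares over all protein-coding genes were 17.0% with a peak and 12.8% with a peak of their own. Top calls lay at 22, 20 and 20 of the 73 in replicates 1, 2 and 3 (30.1%, 27.4% and 27.4%), against 17.3%, 17.3% and 18.3% of all protein-coding genes.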

How the data were processed

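ChIP-seq was analysed from whole white prepupae of the CG8632-eGFP line in 3 replicates of 1 group. The authors deposited peak lists, per the labels on builds dm6 and dm3, and the dm6 lists were used. Signal values were used as deposited by the authors. The significance column, on the −log10 scale as deposited, was read to describe the lists and decided nothing. Not given in the sources used here were the peak caller, the aligner, any control correction and the threshold of the IDR. The 6469 IDR peaks are the top of the pooled list by signal and have no replicates.

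Transcript starts came from Ensembl release 115 without transposable elements, on the main chromosomes (18277 genes), and sequence came from RefSeq's Release 6 genome. Symbols were matched exactly, and 1 of 56 other pathway symbols matched no gene. For each gene, the strongest call with its summit within 500 bp of a start was taken. Intervals are Wilson 95% from SciPy 1.17.1, run under Python 3.11.15. With 1 group there was no comparison of conditions, and no test was run. Scripts were tested on simulated data.

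The members, lists and words were chosen with earlier results of these data known. Genes are named when an IDR peak, or top calls of all 3 replicates, lay at a start. For a complex with no such gene, the one with the lowest mean rank is named, and so is a gene whose start was nearest to a summit instead. Names outside this rule (weaker calls, genes without a call, COX4) were chosen after their values were seen. Alternatives were other windows, starts, peak sets and numbers of calls, and leaving out each replicate.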

Additional observations from a re-analysis of the deposited data

How the results depend on the processing

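Counts of this size move easily, and several did. Of 9 genes with an IDR peak at a start, 4 had one in the stronger part of the IDR set (3234 peaks), with 2 of their own, 3 of complex I, 0 of complexes II and IV, 0 duplicates and 4 others, and 1477 of all protein-coding genes. When the peak had to overlap a start, 5 genes were left, 3 of complex I, 0 of complex IV, 0 duplicates and 5 others, with 1363 of all protein-coding genes. A 250 bp window gave 7 genes, with complex IV and the duplicates at 0. A 1000 bp window gave 12, with 2 of complex II and 7 genes called in all 3 replicates. Keeping IDR peaks overlapped by a top call of both other replicates gave 5, 4 and 5 genes without replicate 1, 2 and 3, thus 4 to 5, with 2 to 3 of their own, 3 to 5 of complex I, 0 of complex II, 0 to 1 of complex IV, 0 to 1 of complex V, 0 to 1 duplicates and 3 to 5 others. Own peaks numbered 2 where no other start lay within 500 bp of the summit. Among the strongest 3000 calls, 2, 4 and 4 genes were called in replicates 1, 2 and 3, and among the strongest 12000, 22, 22 and 14 with 9 in all 3. Calls of any rank gave 31, 30 and 28, with 16 in all 3, and requiring only 2 of the replicates gave 4 to 6 in place of 3. The share of the 84 genes was below that of all protein-coding genes under each window, start, peak set and left-out replicate, from 4.76% against 10.6% for the stronger peaks to 14.3% against 20.7% at 1000 bp. The cause of these moves was not tested beyond the smaller or larger sets used. Depth is unknown, so calls missing from a replicate cannot be read as absence. No paired analysis was possible because there was 1 group.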
